A study of Rattus norvegicus with 90 samples.

Results

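The deposited tables list genomic intervals beside the annotated transcripts, and 200 of the 25095 intervals were examined here because their RNA was measured mainly in cardiomyocytes. The name of an interval is its chromosome with first and last base on the rat genome build Rnor_6.0, and the tables say no more of it. The 200 were chosen by measured values, namely the level in cardiomyocytes over the larger of the levels in hepatocytes and renal cells in vehicle at 9 h, with a cardiomyocyte mean of at least 0.5 CPM, and they are referred to by their rank in that ratio or by position. CPM is the estimated read count of an interval per 1000000 estimated counts on transcripts of the same library. The ratio was taken as log2 of the means after 0.1 CPM was added to each, intervals of chromosome Y were left out, and 5505 intervals reached the minimum level. Vehicle libraries of 9 h chose the intervals, so the high cardiomyocyte level in those libraries is a description and not a result.

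Cells labelled as from Sprague-Dawley rats were kept for 9 or 24 h with vehicle or with a dose of thioacetamide-S-oxide, a reactive metabolite of the liver toxicant thioacetamide. Cardiomyocytes received 0.5 mM (low) or 1.5 mM (high), renal tube epithelial cells 0.125 or 0.5 mM, and hepatocytes 0.025 or 0.125 mM. Each of the 18 combinations of cell type, dose and time had 5 poly-A-enriched RNA libraries, 90 in all. The labels give the dose and time of the cardiomyocytes, and the sources used here do not describe where those cells came from or how many survived each dose. The tables hold transcript identifiers without gene names, and none of the tables used here pairs them with genes, so cardiomyocyte marker genes could not be checked and the cell type is that of the labels. The labels do not say that the libraries of a group came from separate cultures, so the p-values below measure the spread between these libraries, which may be technical.

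Much of a mammalian genome is transcribed at a low level outside annotated genes, and such RNA can come from long non-coding genes, from enhancers, from unannotated ends of neighbouring genes and from repeats. Non-coding transcription is known to differ more between cell types than the transcription of most protein-coding genes. Cardiomyocytes, the contractile cells of the heart, depend on a transcript programme of sarcomere and ion channel genes that liver and kidney epithelium largely lack. What lies in these intervals was not looked up here, because no annotation or sequence of the build was at hand, and no gene is named for them.

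The cardiomyocyte libraries held between 11519900 and 61897100 estimated counts, and 5.40% to 11.04% of these fell on intervals. The 200 intervals held 2.92% to 8.16% of the interval counts in cardiomyocytes. At the high dose at 24 h the share of counts on all intervals was 6.48% to 11.04%, against 5.40% to 7.53% in vehicle at 24 h. At the low dose at 24 h it was 6.52% to 10.27%. At 9 h it was 5.64% to 9.86% in vehicle, 7.19% to 9.81% at the low dose and 5.61% to 8.08% at the high dose. Some libraries stood apart. Hepatocyte vehicle library MS-183 at 24 h had 91.7% of its counts on intervals and only 249303 counts on transcripts, so the counts against hepatocytes are given with and without it, and hepatocyte levels at 24 h are those of the other 4 libraries unless stated. In cardiomyocytes, MS-158 (low, 9 h) and MS-172 (low, 24 h) had a median level over all intervals of 0.0185 and 0.0207 CPM per kb. In MS-178 (high, 24 h) this median was 0, and in the other cardiomyocyte libraries it was at most 0.0108. Values without these libraries are given for some of the results named below.

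The 200 intervals covered a wide range of levels. In vehicle at 9 h their means ran from 0.509 to 409 CPM with a median of 4.68 CPM. The level was at least 10 CPM in 66 and at least 100 CPM in 9. The single most abundant interval held 10.01% of their summed CPM, and the 10 most abundant held 50.5%, so a summed level describes few intervals. Per kb of length, the interval chr19:25818575-25821279 (rank 99, 2705 bases) was the most abundant, at 77.9 CPM per kb, and chr10:107324856-107337964 (rank 44) and chr8:25830267-25850266 (rank 1) reached 23.0 and 20.4 CPM per kb. The median over the 200 was 0.373 CPM per kb.

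The ranking ratio was 11.32 on the log2 scale for rank 1 and 2.04 for rank 200. It was at least 4 in 32 intervals and at least 3 in 73. The hepatocyte mean was the larger of the other means in 73 intervals and the renal mean in the rest. The last 5 intervals taken had log2 ratios from 2.07 to 2.04, and the first 5 left out from 2.03 to 2.01, so the border falls within a continuous range. The border intervals also differ in how well they are measured. Rank 197, chr13:104209910-104229909, passed with 0.859, 0, 0.0580, 2.12 and 0.0554 CPM in the 5 vehicle libraries of 9 h, whereas rank 198, chr12:22352123-22356441, had 0.507, 0.456, 0.536, 0.457 and 0.608 CPM.

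The lengths of the intervals ran from 1275 to 20000 bases, the median being 17185 bases, and 80 of the 200 (40%) had the greatest length in the tables, 20000 bases, close to the 40.5% of the 5505 intervals at the minimum level. They lay on 21 chromosomes. Chromosome 8 held 21 of them, which was 1.51% of its intervals, and chromosome 6 held 16 (1.39%). Chromosome 3 held 6 (0.303%). Among the 200, 33 (16.5%) had another of the 200 as a neighbour in the table. Of the intervals outside the 200, 1.46% had one of the 200 beside them. These 33 formed 15 runs, of which 13 were pairs and the longest were 4 intervals on chromosome 6 (47.8 kb) and 3 on chromosome 7 (chr7:94997871-95287875, 290.0 kb). The chromosome 7 run includes ranks 4 and 23, and rank 1 has rank 200 as its neighbour on chromosome 8. Neighbours can be parts of a single transcript, so the 200 are not 200 independent units.

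The level at 24 h did not enter the ranking and tests whether the preference for cardiomyocytes was seen in other libraries. Taking all 200, and not only those that passed a filter on low counts, the cardiomyocyte mean exceeded the renal mean in vehicle at 24 h in 200, and all 5 cardiomyocyte libraries were above all 5 renal libraries in 198. Among all 25095 intervals, 8.09% had cardiomyocyte libraries above all renal libraries. The 2 exceptions were chr4:99067455-99074034 and rank 197, with cardiomyocyte means of 0.520 and 0.268 CPM and renal means of 0.137 and 0.153 CPM. Without MS-183, all cardiomyocyte libraries were above the 4 remaining hepatocyte libraries in 87.5% of the 200, compared with 6.69% of all intervals, and the cardiomyocyte mean was higher in 195. With MS-183 all cardiomyocyte libraries were above all hepatocyte libraries in 22 (0.972% of all intervals), and the cardiomyocyte mean was higher in 38. An interval could pass the filter on low counts through its level in cardiomyocytes alone, so the share of them called is no support: of all intervals that passed it, edgeR called 46.3% between cardiomyocytes and renal cells and 72.7% between cardiomyocytes and hepatocytes (63.9% without MS-183). At 24 h in vehicle, the median over the 200 of the group means was 5.21 CPM in cardiomyocytes, 0.311 CPM in renal cells and 0.461 CPM in the 4 hepatocyte libraries.

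**Figure D1:**
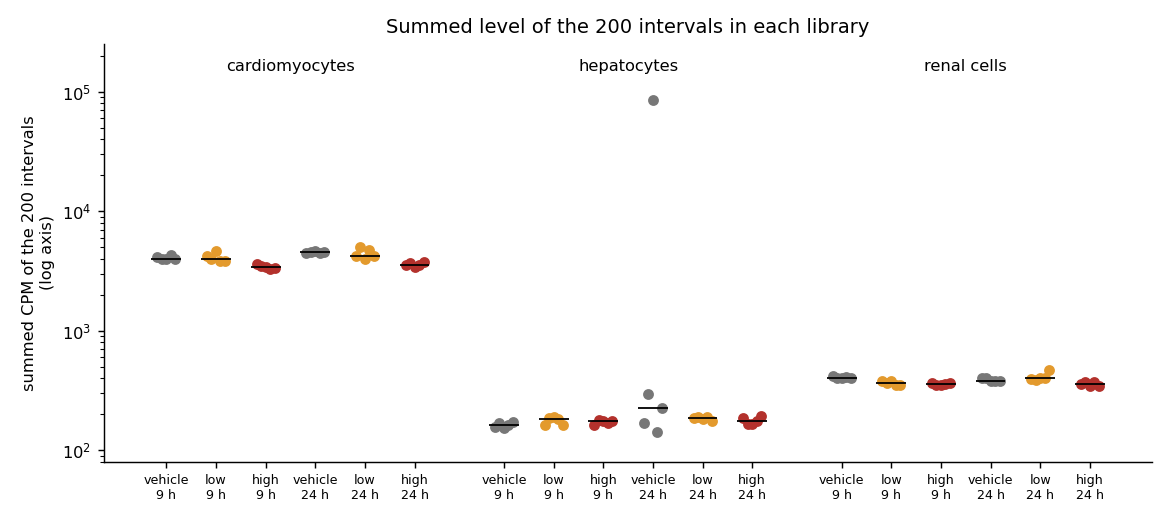
Summed CPM of the 200 intervals (log axis) in each of the 90 libraries, by cell type, dose and time. Points are libraries and bars are medians. Cardiomyocyte libraries lie between 3306 and 4970 CPM, the hepatocyte and renal libraries between 141.2 and 465.5 CPM, except for hepatocyte vehicle library MS-183 at 85131 CPM.

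The highest ranked interval, chr8:25830267-25850266 (20000 bases), had 509, 534, 493.4, 496 and 543 CPM in the cardiomyocyte vehicle libraries of 24 h. In renal cells at the same time it had 0.0360, 0.0932, 0, 0.0751 and 0.0386 CPM, and in the 4 hepatocyte libraries 0.145 to 0.802 CPM. In these cardiomyocyte libraries it was the most abundant of the 200, and in renal cells it was near the level of single reads. Rank 2, chr2:54698215-54708638, had 212, 214, 176.5, 217 and 212 CPM in the same cardiomyocyte libraries, at most 0.108 CPM in renal cells and at most 0.425 CPM in the 4 hepatocyte libraries. Rank 8, chr10:34934040-34938166, was lower, at 6.54 to 7.39 CPM, and was 0 in all 5 renal libraries. Rank 7, chr1:213751907-213766258, had 61.3 to 76.7 CPM in cardiomyocytes and 0.867 to 1.51 CPM in renal cells, a log2 difference of 6.01 ± 0.13 (SE; adjusted p = 4.19e-12, edgeR). For each of the 10 highest ranked intervals the cardiomyocyte libraries lay above all renal libraries and the 4 hepatocyte libraries, and with MS-183 counted those of ranks 5 to 10 overlapped with hepatocytes.

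**Figure D2:**
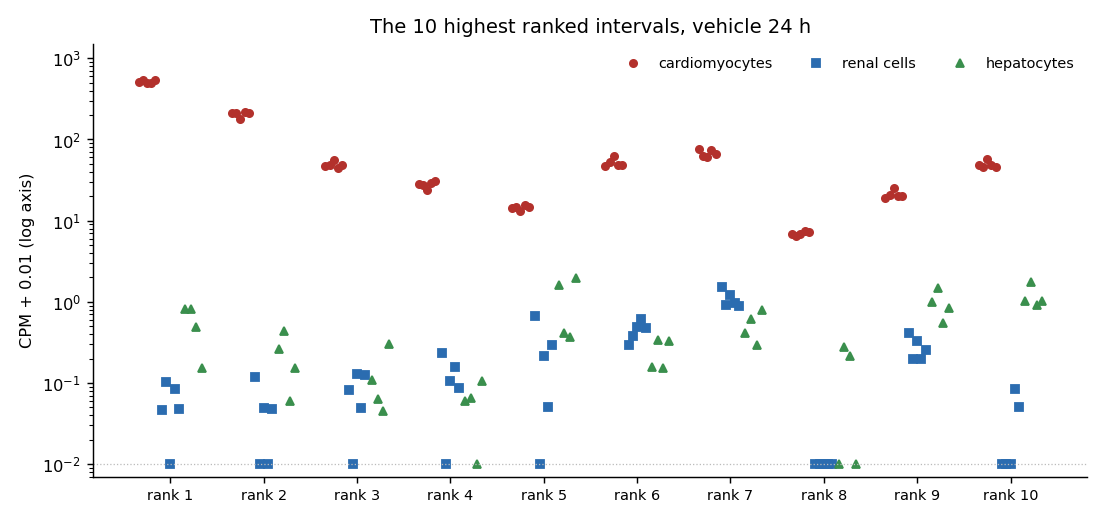
CPM plus 0.01 (log axis) of the 10 highest ranked intervals in vehicle at 24 h, with 1 point per library; libraries at 0 lie on the dotted line, and hepatocyte library MS-183 is left out. Cardiomyocyte libraries run from 6.54 CPM (rank 8) to 543 CPM (rank 1), and no renal or hepatocyte library shown exceeds 1.97 CPM.

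Beside rank 1, the 4 intervals with the highest cardiomyocyte mean in vehicle at 9 h were also present in renal cells. In vehicle at 24 h, chr10:107324856-107337964 (rank 44) had 359 to 435 CPM in cardiomyocytes and 38.5 to 46.3 CPM in renal cells, a log2 difference of 3.32 ± 0.09 (adjusted p = 1.42e-11, edgeR). The interval chr6:119609797-119626737 (rank 45) had 280 to 310 CPM and 19.2 to 21.4 CPM, and chr4:159654564-159674384 (rank 84) had 160 to 203 CPM and 27.5 to 30.97 CPM. The shortest of them, chr19:25818575-25821279 (rank 99), had 183.2 to 262 CPM in cardiomyocytes, 16.4 to 21.2 CPM in renal cells and 20.3 to 27.1 CPM in the 4 hepatocyte libraries.

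At 24 h in vehicle the cardiomyocyte mean was below the mean of the 4 hepatocyte libraries in 5 intervals. These were ranks 47, 92, 180 and 197 and chr19:28831215-28851214. The largest gap was at rank 197, with 0.200 to 0.401 CPM in cardiomyocytes and 1.13, 5.54, 0.246 and 6.29 CPM in hepatocytes. Rank 92, chr1:78394314-78414313, had 1.27 to 2.52 CPM in cardiomyocytes and 1.58 to 2.47 CPM in hepatocytes, and rank 47, chr4:170995397-171015396, had 0.499 to 1.48 and 0.612 to 1.33 CPM. In all 5 the ranges of the cell types overlapped. The hepatocyte values of ranks 180 and 197 and of chr19:28831215-28851214 were highest in MS-182 or MS-185, libraries with a raised median level over all intervals, and the part of that in these means was not tested. For all 5, renal cells were below cardiomyocytes in the mean.

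A single dose, 0.5 mM, was given to both cardiomyocytes (low) and renal cells (high). At that dose all cardiomyocyte libraries were above all renal libraries in 189 of the 200 intervals at 9 h and in 186 at 24 h, compared with 7.08% and 4.95% of all intervals (of those that passed the filter on low counts, edgeR called 39.7% and 39.8% in either direction). At both times the cardiomyocyte mean was higher in all 200. Between vehicle at 24 h and 0.5 mM at 24 h, the number without overlap was 198 against 186, and the difference between these numbers was not tested. Rank 1 had 332 to 537 CPM in cardiomyocytes and 0.123 to 0.723 CPM in renal cells at 0.5 mM at 24 h.

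The effect of the high dose was tested at 24 h, where neither group took part in the ranking. Of the 200 intervals, 198 passed the filter on low counts (all but ranks 197 and 198). A change was called at an adjusted p-value of at most 0.05 (edgeR quasi-likelihood test, Benjamini-Hochberg over all transcripts and intervals tested) where the natural logarithm of the fold change was also 0.41 or more, up or down. By this rule 80 of the 198 changed, 58 of them lower and 22 higher at 1.5 mM than in vehicle. Of all intervals tested, 8.22% changed, 3.77% lower and 4.45% higher, and of the tested intervals at the minimum level 8.98% changed. The median log2 fold change of the 198 was -0.29, compared with 0.00 for all intervals, and their quartiles were -0.74 and 0.17. Over all 200, all high-dose libraries lay below all vehicle libraries in 73 and above them in 26, against 2.16% and 1.72% of all intervals. The summed CPM of the 200 fell outside the range of vehicle, at 3376 to 3733 CPM against 4469 to 4657 CPM. In bulk libraries, fewer cells of a type and less RNA per cell cannot be told apart, and the number of surviving cells at 1.5 mM is not given in the sources used here.

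The share of intervals called differed along the ranking. Of all intervals tested 8.22% were called, and 8.98% of those at the minimum level. Taken in order of rank by 50, the share was 60% for the first 50 (21 lower, 9 higher), then 48% and 22%, and 31.2% of those tested in the last 50. Their median log2 fold changes were -0.46, -0.37, -0.25 and -0.04. Intervals of at least 5 CPM were called in 45.7% and those under 5 CPM in 35.6%, with medians of -0.29 in both. Intervals of 20000 bases were called in 36.7% and shorter ones in 42.9%. These shares are descriptions and were not tested against each other.

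**Figure D3:**
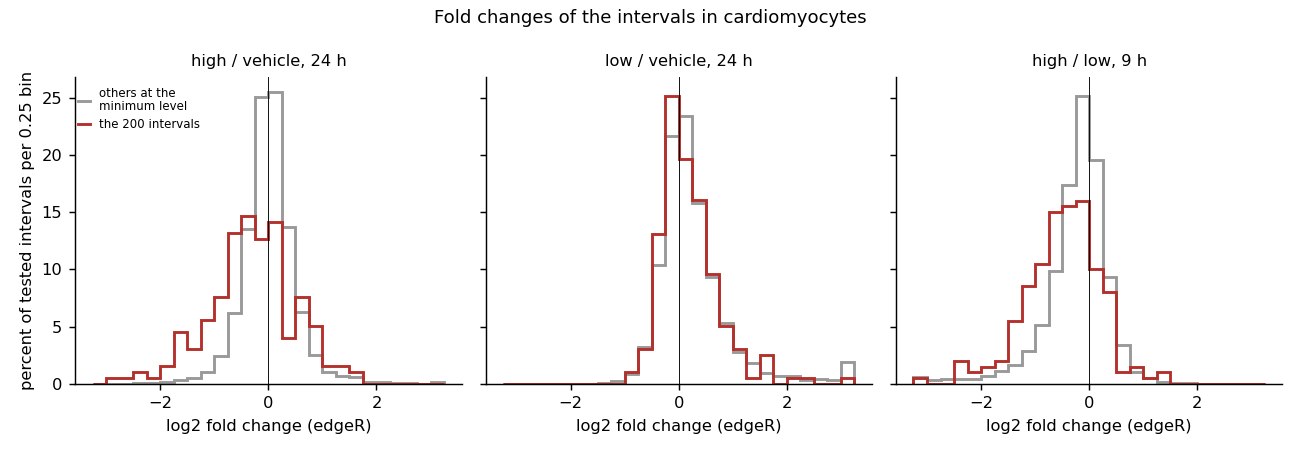
Percent of tested intervals in each bin of 0.25 of the log2 fold change in cardiomyocytes, for high against vehicle at 24 h, low against vehicle at 24 h and high against low at 9 h. The red line is the 200 intervals and the grey line the other intervals with the same minimum level; the red line is shifted to the left for high against vehicle (median -0.29) and high against low (median -0.42). The outer bins hold all values beyond them.

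Of all 6717 intervals tested, 3377 had a negative log2 fold change at the high dose and 3340 a positive one. Among the 10 highest ranked intervals, 8 fell at the high dose and 2 rose. Rank 1 had 282, 297, 215, 246 and 278 CPM at the high dose at 24 h against 493.4 to 543 CPM in vehicle, a log2 fold change of -0.97 ± 0.08 (adjusted p = 7.06e-06, edgeR), with no overlap. Rank 2 had 102.6, 108, 84.2, 80.9 and 92.2 CPM against 176.5 to 217 CPM (log2 fold change -1.15 ± 0.09). Rank 8 fell by 1.56 ± 0.21 on the log2 scale, the largest fall of the 10, from 6.54 to 7.39 CPM to 1.18 to 3.07 CPM. The 2 that rose went the other way in every library. Rank 5, chr1:247647992-247667991, had 30.2, 32.1, 34.2, 28.5 and 31.4 CPM at the high dose against 13.3 to 15.4 CPM in vehicle (log2 fold change 1.10 ± 0.06), and rank 9, chr10:82763290-82770404, had 30.2 to 38.3 CPM against 19.1 to 25.3 CPM (0.71 ± 0.09). Of the most abundant intervals, rank 45 fell (log2 fold change -0.63 ± 0.06, adjusted p = 8.17e-06, edgeR). Rank 44 had a log2 fold change of -0.53 ± 0.06 and rank 84 one of 0.22 ± 0.06, both with an adjusted p-value at or under the threshold (6.6e-05 and 0.025) and a fold change too small to be called. Rank 99 had a log2 fold change of -0.16 ± 0.11 (adjusted p = 0.32, edgeR).

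The largest fall among the called intervals without overlap was at rank 106, chr13:80745848-80754557 (8710 bases). It had 5.52, 6.63, 6.93, 5.01 and 5.54 CPM in vehicle at 24 h and 0.792, 0.939, 1.35, 0.497 and 0.742 CPM at the high dose, a log2 fold change of -2.83 ± 0.23 (adjusted p = 4.77e-06, edgeR). At 9 h the same interval had only 1.41 to 1.92 CPM in vehicle, so the high-dose level at 24 h was below the vehicle level of either time. At rank 61, chr14:7682879-7685214, the high-dose libraries of 24 h overlapped with vehicle at 9 h. This interval had 0.686 to 1.23 CPM in vehicle at 9 h, 2.97 to 4.57 CPM in vehicle at 24 h and 0.392 to 1.32 CPM at the high dose at 24 h (log2 fold change -2.51 ± 0.33, with -2.86 to -1.85 over the alternatives). Rank 43, chr15:110379470-110384716, had 5.31 to 6.84 CPM in vehicle at 24 h and 0.224 to 1.63 CPM at the high dose (-2.43 ± 0.32), the lowest value being that of MS-178, without which the change was -2.22. In these 3 intervals all vehicle libraries of 24 h exceeded every vehicle library of 9 h, whereas the high-dose libraries of 24 h did not all do so.

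Rank 51, chr5:101006877-101019948, was the most abundant of the 5 largest falls. It had 25.3, 26.6, 21.4, 25.7 and 26.8 CPM in vehicle at 24 h, 10.1, 4.27, 11.9, 20.05 and 13.9 CPM at the low dose and 4.81, 5.27, 5.09, 4.61 and 5.32 CPM at the high dose. The high dose lowered it by 2.34 ± 0.08 on the log2 scale (adjusted p = 3.69e-09, edgeR). All low-dose libraries were also below all vehicle libraries, with a log2 fold change of -0.93 ± 0.24 that did not pass the test (adjusted p = 0.308, edgeR). The interval chr9:97846083-97866082 had 1.21 to 2.06 CPM in vehicle and 0 to 0.862 CPM at the high dose (log2 fold change -2.08 ± 0.56, adjusted p = 0.0174, edgeR), with the 0 in MS-178, the second shallowest cardiomyocyte library, without which the change was -1.86. Over the alternatives it was -2.60 to -1.39.

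The largest rise was at rank 22, chr9:70290618-70310431 (19814 bases). Its vehicle libraries of 24 h had 12.8, 12.4, 10.4, 12.1 and 11.9 CPM and its high-dose libraries 35.4, 37.2, 36.1, 38.0 and 42.7 CPM, a log2 fold change of 1.66 ± 0.07 (adjusted p = 2.76e-08, edgeR). The low-dose libraries had 19.5, 16.2, 21.0, 9.64 and 21.5 CPM. Of these, 4 lay between vehicle and the high dose, and MS-174 was below all vehicle libraries. Rank 20, chr2:165488155-165505310, had 2.29 to 3.14 CPM in vehicle and 7.03 to 11.3 CPM at the high dose (1.64 ± 0.15), and rank 95, chr14:5838583-5857446, had 3.08 to 4.58 and 9.31 to 11.03 CPM (1.46 ± 0.13). For both, vehicle at 9 h was higher than vehicle at 24 h, at 4.43 to 7.62 and 7.06 to 9.06 CPM. Rank 90, chr6:129430177-129437657, rose from 2.43 to 3.70 CPM to 5.49 to 7.01 CPM (1.11 ± 0.14). Rank 92, which was not highest in cardiomyocytes at 24 h, rose by 1.35 ± 0.33 (adjusted p = 0.0104, edgeR), with 8.47 CPM in MS-178 and 2.92 to 4.73 CPM in the other 4 libraries (0.99 without MS-178).

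**Figure D4:**
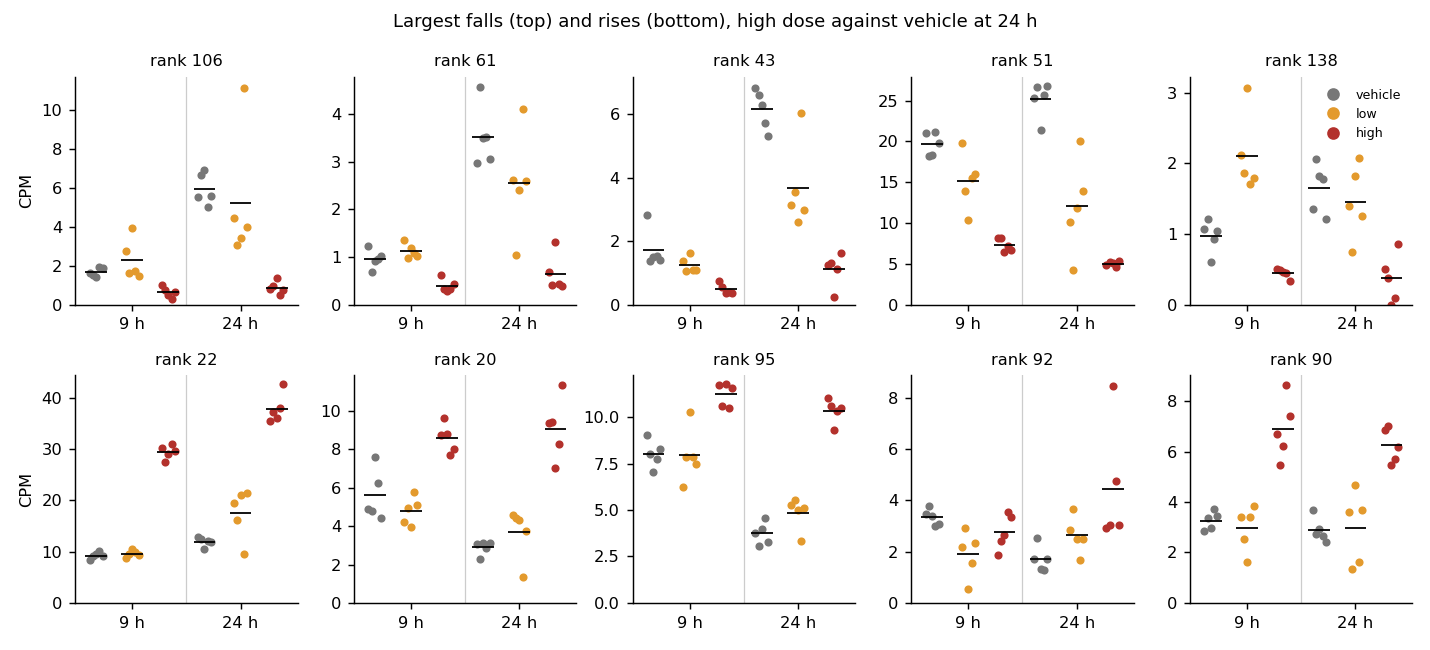
CPM of the 5 intervals with the largest falls (top) and the 5 with the largest rises (bottom) for high against vehicle at 24 h, in cardiomyocytes at 9 and 24 h. Points are libraries, bars are means, and colours mark vehicle, low and high dose; for rank 22 the high-dose libraries at 24 h sit between 35.4 and 42.7 CPM and the vehicle libraries between 10.4 and 12.8 CPM.

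Low against vehicle at 24 h gave no called interval. In the edgeR test 0 of 199 passed, as did 0 of all 6391 intervals tested (0%), and 27 of the 199 had an unadjusted p-value under 0.05, as had 703 of the 6391. DESeq2 called 4 of the 199 (0.282% of all intervals), limma called 0, and edgeR called 4 when MS-174 was left out (0.120% of all intervals). The median log2 fold change was 0.09 for the 199 and 0.18 for all intervals, but its sign depended on the scale and on 1 library. With limma the medians were -0.10 and -0.033, without MS-172 they were -0.024 and -0.021, and the mean CPM was higher at the low dose in 85 of the 200 (42.5%, compared with 58.3% of all intervals). All low-dose libraries lay below all vehicle libraries in 15 of the 200 and above them in 2, compared with 0.841% and 0.482% of all intervals. The low-dose libraries differed among themselves. For rank 1 they had 363, 360, 332, 537 and 353 CPM against 493.4 to 543 CPM in vehicle, with MS-174 the only library in the vehicle range, and for rank 7 they had 50.3, 13.2, 58.8, 47.9 and 56.8 CPM, with MS-172 far below the rest.

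High against low dose could be tested at both times. At 24 h, 34 of 197 intervals changed (29 lower and 5 higher at the high dose) against 2.44% of all intervals (1.25% lower and 1.19% higher), with a median log2 fold change of -0.44 compared with -0.21 for all intervals. The count depended on single libraries: it was 57 without MS-172 (5.28% of all intervals), 18 to 22 without MS-176, MS-177, MS-179 or MS-180 (1.11% to 1.30%), and 60 without both MS-172 and MS-178 (7.63%). The 5 that were higher were ranks 5, 22 and 79 (chr15:27514381-27534380), chr7:20718353-20738352 and chr16:50031715-50049327. All but ranks 5 and 22 are named because the count is small, after their values were seen. At 9 h, 43 of 200 changed (38 lower and 5 higher) against 3.2% of all intervals (1.84% lower and 1.36% higher), with a median of -0.42 compared with -0.20. Without MS-158 it was 55, against 8.12% of all intervals. The low-dose groups hold MS-158 (9 h) and MS-172 (24 h), whose median level over all intervals was raised. Their part in these fold changes was not tested. At 9 h all high-dose libraries lay below all low-dose libraries in 54 of the 200 and above them in 13. Among all intervals the shares were 1.75% and 2.41%. At 24 h it was 35 and 20 of the 200, compared with 1.44% and 1.63%.

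At 9 h the largest rises for high against low were at ranks 22, 86 and 90. Rank 22 had 27.4 to 30.99 CPM at the high dose and 8.67 to 10.5 CPM at the low dose (log2 fold change 1.44 ± 0.16, adjusted p = 0.000591, edgeR). Rank 86, chr17:13791544-13798882, had 11.7, 9.85, 10.04, 9.53 and 9.22 CPM at the high dose and 4.16, 3.97, 1.42, 4.53 and 4.09 CPM at the low dose (1.37 ± 0.18). The 1.42 CPM was that of MS-158, and over the alternatives the change was 1.24 to 1.44. In vehicle at 9 h rank 86 had 1.72 to 2.5 CPM. At 24 h it had 5.83 to 7.47 CPM at the high dose and 4.01 to 5.59 CPM in vehicle (0.55 ± 0.12, not called). Rank 90 had a log2 fold change of 1.10 ± 0.17 for high against low at 9 h. Ranks 20 and 160 (chr15:108238641-108258640) were the other two called higher. The largest fall that was called was at chr9:97846083-97866082, with 0.327 to 0.508 CPM against 1.70 to 3.07 CPM (-2.44 ± 0.33, adjusted p = 0.00135, edgeR), and its change was -2.55 to -1.44 over the alternatives. Rank 16, chr6:133677408-133682456, had 4.76 to 5.37 CPM at the high dose and 13.2, 15.4, 58.8, 10.6 and 10.1 CPM at the low dose, with the 58.8 CPM in MS-158 (-2.43 ± 0.64, adjusted p = 0.0386, edgeR). Without MS-158 its change was -1.27. Its libraries did not overlap, and its call was lost in 9 of 21 alternatives. The interval chr6:133717349-133732740 had 0.166 to 0.400 CPM against 0.685 to 2.53 CPM (-2.32 ± 0.51), with -2.52 to -1.07 over the alternatives, -1.69 without MS-158 and its call lost in 2 of 21.

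High against vehicle at 24 h and high against low at 9 h have no library in common, so their fold changes can be set side by side, although they compare the high dose with different groups. Of the 198 intervals tested in both, 58.6% were below 0 in both and 15.7% were above 0 in both, compared with 39.8% and 22.5% of all 6692 intervals tested in both. Of the 58 that fell at 24 h, 57 had a negative fold change at 9 h (98.3%), a share near the 97.2% of all intervals that fell. Of the 58, 27 were called lower at 9 h, which was 46.6% of the 58 and 71.1% of the 38 called lower at 9 h, compared with 30.6% and 48.1% over all intervals. Of the 22 that rose at 24 h, 16 had a positive fold change at 9 h (72.7%, compared with 75.9% over all intervals) and 3 were called higher (ranks 20, 22 and 90; 13.6%, compared with 20.7%), of 5 called higher there. These shares were not tested against each other. The low-dose group of 9 h includes MS-158, whose part in these signs was not tested. Across these intervals, which include neighbours and are not independent, Pearson's r of the fold changes was 0.66 and Spearman's rho 0.65, compared with 0.34 and 0.35 across all intervals.

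The high dose at 24 h against the high dose at 9 h gave 20 called of 199 (16 higher and 4 lower at 24 h) against 2.64% of all intervals (1.7% higher and 0.942% lower), with a median log2 fold change of 0.12 compared with -0.02. Without MS-178 it was 30 called (26 higher), against 4.51% of all intervals, and limma called 9 higher and 7 lower. The interval chr9:13491170-13493208 (2039 bases) had 8.32, 7.93, 7.29, 4.94 and 6.52 CPM at 9 h and 16.5, 16.3, 12.7, 15.6 and 15.7 CPM at 24 h (1.23 ± 0.14, adjusted p = 0.000234, edgeR). In vehicle it had 22.8 to 28.2 CPM at 9 h and 20.9 to 24.2 CPM at 24 h, so its high-dose level was below vehicle at both times and less so at 24 h. Rank 4, chr7:95273799-95287875, rose from 7.93 to 12.3 CPM at 9 h to 16.4 to 19.8 CPM at 24 h (1.01 ± 0.12). Rank 94, chr9:87773343-87793342, rose by 1.29 ± 0.21 (0.87 to 1.41 over the alternatives, with its call lost in 1 of 21), and chr4:171048547-171068546 by 1.16 ± 0.24 (0.73 to 1.25, called in all 21).

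The 4 intervals lower at 24 h than at 9 h at the high dose were ranks 31, 110 and 130 and chr2:44247844-44265701. Rank 31, chr1:265057007-265077006, had 17.2, 14.4, 18.1, 19.8 and 18.2 CPM at 9 h and 8.89, 9.17, 10.6, 10.7 and 13.4 CPM at 24 h (-0.65 ± 0.11, adjusted p = 0.00295, edgeR). In vehicle its order was reversed, with 6.53 to 7.94 CPM at 9 h and 14.2 to 15.6 CPM at 24 h. Rank 110, chr18:56406882-56413987, had 2.06 to 2.52 CPM at 9 h and 1.05 to 1.62 CPM at 24 h (-0.68 ± 0.17), and rank 130, chr5:81155273-81175272, had 11.8 to 15.8 and 5.15 to 10.7 CPM (-0.62 ± 0.17). The call was lost in 2 of 21 alternatives for rank 31, in 5 of 21 for rank 110 and in 8 of 21 for rank 130, whose change without MS-178 was -0.49. The last of the 4 was called with overlapping libraries and is named because the count is small.

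The low dose at 24 h against 9 h gave 3 called of 199, all higher at 24 h, against 0.117% of all intervals (0.102% higher). They were ranks 23 (chr7:95037193-95057192), 50 (chr12:23661510-23675651) and 71 (chr17:15467780-15475209), named after their values were seen. Rank 23 had 9.74, 8.12, 6.15, 7.64 and 7.73 CPM at 9 h and 12.9, 9.81, 12.6, 12.5 and 13.5 CPM at 24 h (0.78 ± 0.13, adjusted p = 0.0322, edgeR). The count was 0 when any of MS-156, MS-157, MS-159, MS-160, MS-171, MS-173, MS-174 or MS-175 was left out, 8 without MS-158 (0.436% of all intervals) and 23 without both MS-158 and MS-172 (2.13%). Whether the difference between high and low dose itself differed between 24 h and 9 h was tested as an interaction, and edgeR called 0 of 200 intervals, against 0.0507% of all intervals, with 22 of the 200 and 433 of all 9862 at an unadjusted p-value under 0.05. DESeq2 called 6 (0.456% of all intervals) and limma called 0. edgeR called 4 without MS-158 (0.148% of all intervals), 1 without MS-172 (0.121%), 1 without MS-179 (0.0625%), and 14 without MS-158, MS-172 and MS-178 together (1.16%).

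Comparisons with vehicle at 9 h share libraries with the ranking and are given without a test. The median log2 fold change of the 200 was -0.29 for high against vehicle at 9 h (0.07 for all intervals), 0.10 for low against vehicle (0.22) and 0.14 for vehicle at 24 h against 9 h (0.05). Rank 1 had 393 to 443 CPM in vehicle, 288 to 366 CPM at the low dose and 170 to 210 CPM at the high dose at 9 h, so that its 3 groups did not overlap. Rank 22 had 8.34 to 10.1, 8.67 to 10.5 and 27.4 to 30.99 CPM in the same order, with overlap between vehicle and the low dose only. Between the vehicle groups, rank 61 was higher at 24 h (log2 difference 1.91), as were rank 106 (1.87) and rank 43 (1.86), and rank 47 was lower (-1.39). The choice of intervals by their vehicle level at 9 h enters each of these values.

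A group of 7 of these intervals lies close together on chromosome 6, between chr6:133643105-133662024 and chr6:133799511-133819510. It was picked out after its values were seen. Over 176.4 kb the tables list 16 intervals, and 7 of them are among the 200. Per kb, chr6:133663104-133667474 was the highest of the 16, with a mean of 12.1 CPM per kb in vehicle at 24 h, 3.62 CPM per kb at the high dose and 0.343 CPM per kb in renal cells. In CPM it had means of 19.8 in vehicle at 9 h, 53.0 in vehicle at 24 h and 15.8 at the high dose at 24 h. All 7 had a negative log2 fold change for high against vehicle at 24 h, from -1.24 to -1.77, and 6 were called lower, against 3.77% of all intervals. The exception, chr6:133717349-133732740, had 0.394 to 0.997 CPM in vehicle and 0 to 0.604 CPM at the high dose, and did not pass (adjusted p = 0.117, edgeR). For high against low at 9 h their log2 fold changes ran from -0.86 to -2.43 (the latter -1.27 without MS-158), and 6 were called lower, against 1.84% of all intervals. Since the group was picked for its values, nothing is read from these counts. Their 7 means were each higher in vehicle at 24 h than in vehicle at 9 h. Over the 25 cardiomyocyte libraries that took no part in the ranking, their log2(CPM + 0.5) values correlated in pairs with a median Pearson's r of 0.73 (0.14 to 0.91). These libraries differ in dose and time, and reads of 1 transcript may fall on several of the intervals, so the correlation does not show separate units moving together.

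**Figure D5:**
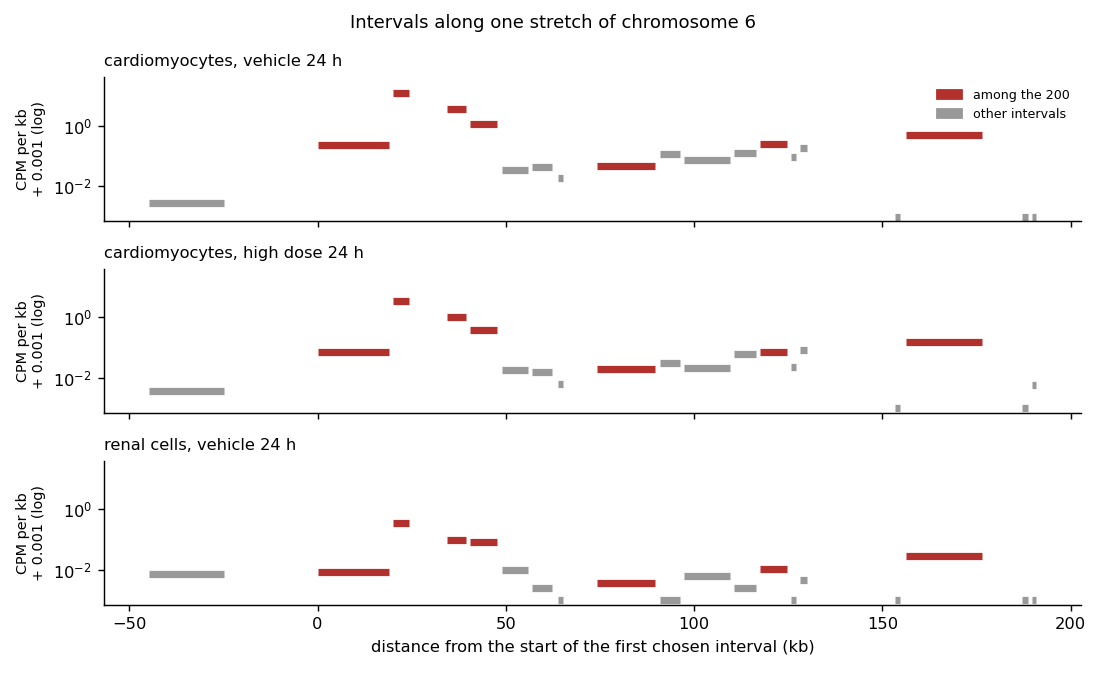
Mean CPM per kb plus 0.001 (log axis) of the intervals along a stretch of chromosome 6, by distance from the start of the first of them that is among the 200, in cardiomyocytes in vehicle and at the high dose at 24 h and in renal cells in vehicle at 24 h. Red segments are among the 200 and grey segments are not; the highest segment is at 12.1 CPM per kb in vehicle cardiomyocytes and at 0.343 CPM per kb in renal cells.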

How the data were processed

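The authors deposited, for each library, estimated counts and TPM per target from kallisto 0.42.4 on Rnor_6.0, per the labels. kallisto divides a read that fits several targets among them, so an estimated count can be a fraction: only 9 of the 200 intervals had whole counts (within 0.001) in all 90 libraries. The sources used here do not describe how the intervals were made. No 2 libraries held identical values.

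CPM was the estimated count per 1000000 counts on transcripts. Counts were rounded to whole numbers and fitted with edgeR 4.0.16 under R 4.3.3 by its quasi-likelihood functions, after filterByExpr, with TMM factors and library sizes taken from transcripts, on transcripts and intervals together and only with the groups compared, in 11 tested comparisons. The study's own test, Sleuth, was not used here. The SE is the absolute log2 fold change over the root of the F statistic. Alternatives were DESeq2 1.42.0, limma 3.58.1 on log2(CPM + 0.5), upper-quartile normalization, library size from all targets, intervals alone, other filters and fold thresholds, all groups in one fit, each library left out, and, after seeing the data, the libraries that stood apart left out. The deposited TPM values served only for an alternative ranking. In simulated data for high against vehicle at 24 h (24384 targets tested), 131 of the 133 targets changed by 2-fold or more were called. Of the 99 changed intervals of any fold 85 were called, 0 changed targets were called in the wrong direction and 10 unchanged targets were called. The simulation changed only well-counted targets, by folds above the threshold, and gave all targets the same dispersion. It does not describe intervals near the minimum level or libraries that stood apart.

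The intervals and lists were chosen with earlier results of these data known. The text names the 10 highest ranked and 5 most abundant intervals (mean in vehicle at 9 h) and, among called intervals whose libraries do not overlap, the 5 largest rises and falls for high against vehicle at 24 h and the 3 largest each way for high against low at 9 h and for high at 24 h against 9 h. It also names the intervals at the border of the ranking, those not called or not highest at 24 h, and others where stated.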

Additional observations from a re-analysis of the deposited data

Results flagged for a closer look

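A library was noted where its gap to the nearest of the other 4, divided by the range of the group, was above Dixon's critical value of 0.71. Sets of 5 libraries were checked for the summed CPM of the 200 intervals and for the CPM of the 10 highest ranked intervals in cardiomyocytes, 78 sets in all. In 16 sets a library stood apart, where about 1 in 20 sets (3.9) would by chance. The causes were not tested.

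In the summed CPM, the hepatocyte vehicle library MS-183 of 24 h was at 85131 (the others 141.2 to 294), the renal low-dose library MS-145 of 24 h at 465.5 (383 to 404) and the renal vehicle library MS-121 of 9 h at 415 (403 to 406). Among single intervals, MS-174 (low, 24 h) was high at rank 1 with 537 CPM (332 to 363) and at rank 3, chr20:12801681-12806456, with 59.4 CPM (34.7 to 40.7). MS-172 (low, 24 h) was high at rank 4 with 30.6 CPM (22.3 to 24.6) and at rank 9 with 36.4 CPM (19.2 to 22.6), and low at rank 7 with 13.2 CPM (47.9 to 58.8). MS-158 (low, 9 h) was high at rank 9 with 36.6 CPM (17.4 to 20.3) and at rank 10, chr13:91963089-91979613, with 99.3 CPM (49.2 to 61.7), and low at rank 5 with 7.89 CPM (19.0 to 21.5) and at rank 7 with 17.1 CPM (46.0 to 55.7). MS-168 (vehicle, 24 h) was low at rank 2 with 176.5 CPM (212 to 217), and high at rank 9 with 25.3 CPM (19.1 to 20.4) and at rank 10 with 57.8 CPM (45.5 to 48.7). MS-178 (high, 24 h) was low at rank 3 with 17.0 CPM (24.3 to 26.2).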

How the results depend on the processing

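No paired analysis was possible because the groups share no library numbers. Counts below are of the 200 intervals called. The share of all intervals called also changed with the setting, as given above for libraries left out, so these counts alone are no result about the 200. High against vehicle at 24 h gave 80 (against 8.22% of all intervals), 41 with a fold change of at least 2, and 71 to 85 with single libraries left out. Of the 80, 75 to 80 were also called by limma, DESeq2, upper-quartile normalization or the fit of intervals alone and 61 by the fit of all groups, with 0 changes of sign. DESeq2 and the fit of all groups each called 4 for low against vehicle at 24 h, where leaving out single libraries gave 0 to 4. On limma's scale the median of these intervals for that comparison was -0.10, against 0.09.

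High against low at 24 h (34) gave 59 with DESeq2, 22 with intervals alone, 21 with a fold change of at least 2, 74 with all groups, 60 without MS-172 and MS-178, and 18 to 57 with single libraries left out. High against low at 9 h (43) gave 31 to 55. High at 24 h against 9 h (20) gave 44 with no fold threshold, 6 with a fold change of at least 2, and 16 to 30 with single libraries left out. Low at 24 h against 9 h (3) gave 12 with DESeq2, 1 with limma, 0 with intervals alone, 0 with a filter of 1 count, 1 with a filter of 5 counts in 47% of libraries, 0 with a fold change of at least 2, 16 with all groups, 23 without MS-158 and MS-172, and 0 to 8 with single libraries left out. The interaction (0) gave 6 with DESeq2, 5 with all groups, 14 without MS-158, MS-172 and MS-178, and 0 to 4 with single libraries left out. In the main fits the shares of all intervals called were 2.44%, 3.2%, 2.64%, 0.117% and 0.0507%, in the order of this paragraph.

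Cardiomyocytes against hepatocytes gave calls in 18.5% of the 200 intervals (20 higher and 17 lower in cardiomyocytes, against 72.7% of all intervals tested), 32.5% with library sizes from all targets, 28.5% with intervals alone, 73% with all groups, and 9% to 91% with single libraries left out, with 91% without MS-183 (all of these higher in cardiomyocytes, against 63.9% of all intervals tested) and 9% without any single one of the 5 cardiomyocyte libraries. Against renal cells the counts with single libraries left out were 193 to 198 in vehicle, 194 to 199 at 0.5 mM at 9 h and 189 to 196 at 24 h. In the main fits 46.3%, 39.7% and 39.8% of all intervals tested were called. These counts are no support for the preference, since an interval could pass the filter on low counts through its level in cardiomyocytes alone. The log2 ratio of the summed CPM for low at 24 h against 9 h was 0.12 and turned to -0.014 as a median of differences of log2(CPM + 0.5). The causes were not tested.

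Of the 200 intervals, 80.5% stayed with 0.5 CPM added, 72.5% with 1 CPM added and 50% when TPM was ranked. With single libraries left out 96.5% to 99.5% stayed. At a minimum of 1 CPM 90% stayed, and 4.5% when only intervals with whole counts were kept. These last shares were fixed by the settings, since 180 of the 200 reached 1 CPM and 9 had whole counts. Reads divided among similar targets, and counts near 0 in renal cells and hepatocytes, limit the ratios of the low intervals.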

Other observations

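Other members of the 10 highest ranked intervals showed time and dose patterns that the report has not described. Rank 6, chr1:78968831-78975818, had 28.4 to 33.1 CPM in vehicle at 9 h, 12.8 to 19.3 CPM at the high dose at 9 h, 47.5 to 63.4 CPM in vehicle at 24 h and 17.4 to 28.0 CPM at the high dose at 24 h. It was called lower for high against vehicle at 24 h (log2 fold change -1.10 ± 0.13, adjusted p = 8.59e-05, edgeR) and for high against low at 9 h (-1.21 ± 0.18). Rank 10 had its highest levels at the low dose, with 99.3 CPM in MS-158 and 49.2 to 61.7 CPM in the other libraries at 9 h. Vehicle at 9 h had 27.6 to 32.3 CPM and the high dose 39.5 to 45.7 CPM, so that the 3 groups did not overlap there. At 24 h rank 10 had 45.3 to 70.6 CPM at the low dose, 45.5 to 57.8 CPM in vehicle and 26.6 to 37.6 CPM at the high dose, and low against vehicle did not pass (0.55 ± 0.23, adjusted p = 0.425, edgeR).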
